A study of Arabidopsis thaliana with 48 samples.

Results

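A set of 155 probe sets stayed lower in roots on ACC than in control roots from 4 h to 24 h after transfer. It was chosen by measured values: D, the mean log2 signal of 3 ACC arrays minus the mean of 3 control arrays at the same time, had to be -0.8 or lower at each of 4, 8, 12 and 24 h. Probe sets with a 0 on any array and the control probe sets of the array were left out first, which left 22739, and the members were 0.682% of these. Because those 4 contrasts chose the members, their values are given below as a description, with no test. The tests of members concern the arrays of 0, 0.5, 1 and 2 h. Calls at later times are given only for other genes and as counts within gene families. The platform annotation gave 1 gene name to 80 members and several names to 6, while 69 were not listed in it and are counted here but not named.

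The arrays measured RNA from roots of Arabidopsis thaliana seedlings, 6 days old and raised in continuous light on 1x MS medium with 1% sucrose. A nylon mesh carried the seedlings to fresh medium with 1 µM ACC or to control medium without it, and roots were taken within 5 min of the move (0 h) and 0.5, 1, 2, 4, 8, 12 and 24 h later. There were 48 arrays in 16 groups, with 3 arrays (n = 3) for each medium at each time. Values are the deposited log2 signals of a probe set, differences are ACC minus control, errors are standard errors (SE) from the limma fit over all arrays, and each adjusted p-value is from limma with Benjamini-Hochberg adjustment over all 22739 probe sets.

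ACC, 1-aminocyclopropane-1-carboxylic acid, is the direct precursor of ethylene, and plant tissue converts it to the gas with ACC oxidase. Ethylene binds receptors that otherwise keep the CTR1 kinase active, which releases EIN2 and lets EIN3-type transcription factors act in the nucleus. In roots the hormone is known for slowing cell elongation and for promoting root hairs, and both involve changes in the cell wall and in auxin supply. Roots were sampled whole, so fewer cells of a type and less RNA per cell cannot be told apart in any of the values.

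The labels of replicate 3 of ACC at 1 h disagree, since 2 of its fields (title, description) give ACC and 2 others (source name, agent) give auxin. This array was kept as ACC, and the counts of adjusted calls at 1 h and over 0.5 to 2 h are also given without it. The other values of 1 h include it. Without it the median D of the members at 1 h was -0.50, against -0.44 with it. The array of ACC at 0.5 h, replicate 3, stood apart, with a median correlation of 0.9445 with the other arrays, whereas every other array had at least 0.9664. All arrays had nearly the same mean signal, 7.699 to 7.704, so each difference is relative to the average probe set. Only 8 of 58 listed markers of root and shoot cell types were measured under 1 gene name, and none of the 8 was a member. The root hair markers EXPA7 and EXPA18 were present. The log2 of their summed signal at 4 to 24 h lay between 9.51 and 11.2 on control arrays and between 10.7 and 11.5 on ACC arrays. For the cortex marker AT1G62500 the ranges were 6.12 to 6.61 and 5.89 to 6.64. For the lateral root markers LBD16, LBD29 and PUCHI they were 8.72 to 9.27 and 8.60 to 9.44. None of these root markers passed the limma test at any time. The log2 of the summed signal of the shoot markers RCA and LHCB4.2 lay between 7.77 and 8.58 on control arrays and between 8.15 and 9.59 on ACC arrays at the same times. RCA was higher on ACC at 12 h by 1.32 (adjusted p = 0.00285 in limma), and LHCB4.2 by 0.65 at both 8 h and 12 h (adjusted p = 0.036 and 0.0329). No marker of the endodermis, stele, phloem, xylem, root cap or dividing cells was among the measured ones, and the part of cell composition in the results was not tested.

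Over the 155 members the mean log2 signal of a control array had a group mean between 9.33 and 9.62 throughout, while that of an ACC array went from 9.61 ± 0.09 (SD, n = 3) at 0 h to 7.92 ± 0.07 at 8 h. The group means on ACC were 9.15 at 0.5 h, 8.89 at 1 h, 8.73 at 2 h, 8.07 at 4 h, 7.98 at 12 h and 8.25 at 24 h. On control medium they were 9.48 at 0 h, 9.41 at 0.5 h, 9.33 at 1 h, 9.42 at 2 h, 9.54 at 4 h, 9.54 at 8 h, 9.50 at 12 h and 9.62 at 24 h. From 0.5 h on, all 3 ACC arrays of a time had a lower member mean than all 3 control arrays of that time, and at 0 h the lowest ACC array equalled the highest control array, at 9.53. Replicate 3 of ACC at 2 h, with 9.18, was well above the other ACC arrays of that time, 8.68 and 8.33.

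**Figure D1:**
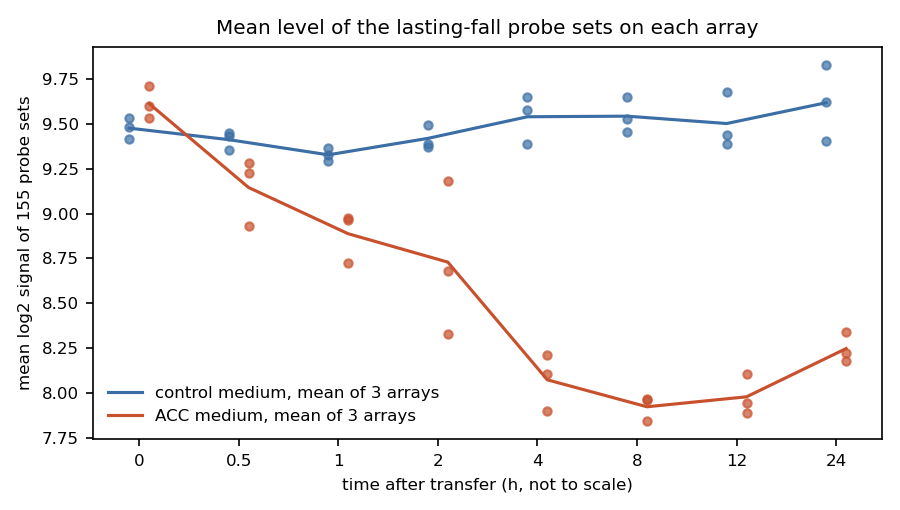
Mean log2 signal over the 155 members (vertical axis, log2 signal) on each array against hours after transfer, with 1 point per array and a line through the mean of 3 arrays of each medium. The control arrays stay between 9.29 and 9.83, and the ACC arrays fall from 9.53 to 9.71 at 0 h to 7.84 to 7.97 at 8 h.

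The members' D had a median of -1.35 at 4 h, -1.48 at 8 h, -1.44 at 12 h and -1.28 at 24 h, and at 8 h it ran from -4.05 to -0.81. The lowest of the 4 values fell at 4 h in 36 members, at 8 h in 54, at 12 h in 40 and at 24 h in 25. D was less negative at 24 h than at 8 h in 113 of 155 members, with a median change of 0.24. The largest such changes among named genes were in AT2G41730, by 2.05, and AT5G04120, by 1.73, whereas AT5G09570 moved the other way, by -0.76. In 122 members all 3 ACC arrays were below all 3 control arrays at each of the 4 times, which held for 2.55% of all probe sets. The rule used these contrasts, so nothing is read from that count.

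Both media can be set against their own 0 h arrays, again as a description. The mean of the control groups of 4 to 24 h differed from control 0 h by a median of 0.07 over the members, and by less than 0.5 in 134 of 155. The mean of the ACC groups of 4 to 24 h was below ACC 0 h in all 155 members, by a median log2 change of -1.41 and a range of -4.02 to -0.52. The rule used these ACC and control arrays, so nothing is read from these directions. The control groups lay above control 0 h by over 0.5 in 15 members, AT5G04120 (0.76), AT3G45680 (0.62), AT5G47980 (0.61) and AT1G14960 (0.59) among them. They lay below it by over 0.5 in 6, among them AT3G54520 (-0.69, named after its values were seen), AT2G04050 (-0.62) and AT2G21640 (-0.54).

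**Figure D2:**
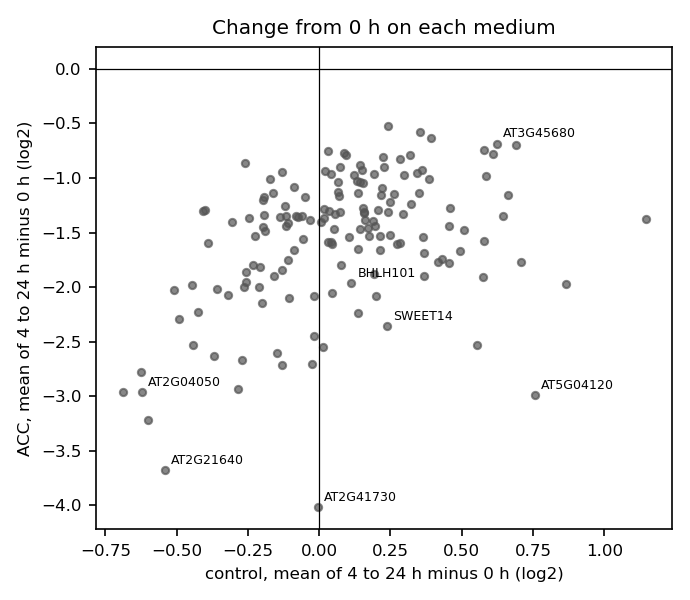
Change from 0 h of each member, as the mean log2 signal of the 4, 8, 12 and 24 h groups minus that of the 0 h group, on control medium (horizontal axis) and on ACC (vertical axis). The points lie between -0.69 and 1.15 on the control axis and all lie below 0 on the ACC axis.

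Part of the fall was present before 4 h. At 0 h, D had a median of 0.12 over the members (0.01 over all probe sets), and 0 members passed the test in either direction, against a background of 0% of all probe sets. At an unadjusted p below 0.05, the limma test at 0 h called 0 members lower (background 0.796%) and 2 higher (background 0.629%). All 3 ACC arrays lay below all 3 control arrays at 0 h in 1 member (background 2.94%) and above them in 6 (background 3.88%). The median D was -0.29 at 0.5 h, -0.44 at 1 h and -0.67 at 2 h, against -0.02, 0.00 and 0.00 over all probe sets. D was below 0 in 122 of 155 members at 0.5 h, in 144 at 1 h and in 149 at 2 h, which is 78.7%, 92.9% and 96.1% of them, against 54.0%, 49.4% and 49.5% of all probe sets. At 0 h it was below 0 in 40 members, 25.8%, against 47.1%.

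With 3 arrays a group, few members passed the test at any single early time. At 0.5 h 2 members were lower (background 0.128% of all probe sets), at 1 h 1 member (background 0.066%) and at 2 h 7 members (background 0.119%), and 0 members were higher at any of these times. At an unadjusted p below 0.05 the limma tests had 26 members lower at 0.5 h (background 7.51%), 36 at 1 h (background 3.58%) and 72 at 2 h (background 3.62%). The 3 ACC arrays lay below the 3 control arrays in 20 members at 0.5 h (background 7.59%), 42 at 1 h (background 5.61%) and 37 at 2 h (background 4.2%). Without the 1 h array whose labels disagree, the count at 1 h was again 1. At 2 h the count was 30 without replicate 3 of the ACC group, the array with the high member mean, and 0 without all arrays of replicate 1 or without all arrays of replicate 2. The mean difference over 0.5, 1 and 2 h, which uses 9 arrays of each medium, was lower in 34 members and higher in 0, against backgrounds of 1.47% lower and 1.73% higher over all probe sets. That count was 30 without the 1 h array of conflicting labels and 30 without the 0.5 h ACC array that stood apart. Leaving out all arrays of replicate 1 left 0 members, replicate 2 left 8 and replicate 3 left 53, and the lower calls over all probe sets, 334 with every array, were 11, 93 and 416 in turn. The 34 hold 21 members with 1 gene name and 13 without. Over the members this mean difference had a median of -0.46 and was below 0 in 150 of 155, and the median member had reached 31.4% of its mean D of 4 to 24 h.

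The 3' to 5' difference of the GAPDH control probe sets, a measure of RNA integrity and labelling, moved with the medium at the same times. ACC arrays exceeded control arrays in it by 0.14 at 0.5 h, 0.41 at 1 h, 0.11 at 2 h, 0.31 at 4 h, 0.39 at 8 h, 0.19 at 12 h and 0.50 at 24 h on the log2 scale, and were lower by -0.18 at 0 h. For actin the same difference at 0.5 h was 3.404, 3.76 and 3.321 on control and 3.316, 3.18 and 3.288 on ACC. At 1 h it was 3.53, 3.15 and 3.13 on control and 3.67, 3.46 and 3.27 on ACC. For ubiquitin it was 0.79, 0.66 and 0.53 on control and 0.65, 0.61 and 0.72 on ACC at 0.5 h. The ubiquitin values of the media overlapped at 1 h too. Neither was used as a covariate. With the GAPDH measure as a covariate, 18 members were lower over 0.5 to 2 h, and the median difference of the members was -0.38. Over all probe sets 136 were lower in that fit, against 334 without the covariate. Differences between the early times themselves passed the test in 0 members for 2 h against 0.5 h (background 0.0088%), 2 h against 1 h and 1 h against 0.5 h (background 0% each). On control medium, an F test of 0 to 2 h called 0 members at the adjusted threshold (background 0%), and 4 at an unadjusted p below 0.05 (background 1.83%).

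Both members that passed the test at 0.5 h were genes of the cell wall. Of 4 wall genes among the members, 3 were lower over 0.5 to 2 h, in a group drawn up after the members were known. The same test had 34 of all 155 members lower, and 1.47% of all probe sets. EXPB1 encodes a beta-expansin, a protein that loosens the wall. Its log2 signals at 0.5 h were 9.38, 8.62 and 8.43 on control and 7.74, 7.55 and 6.98 on ACC, so the media did not overlap, a difference of -1.39 (SE 0.30, adjusted p = 0.0333 in limma). At 8 h they were 9.38, 9.47 and 9.64 on control and 7.46, 7.45 and 7.43 on ACC, 4.13-fold lower, while at 0 h the ACC arrays with 9.38, 9.37 and 9.47 lay within and just above the control range of 8.27 to 9.43. The ACC group means of EXPB1 were 7.42 at 0.5 h and 7.45 at 8 h. Control arrays read higher at 8 h, and D went from -1.39 at 0.5 h to -2.05 at 8 h. The ACC value of 6.98 at 0.5 h is from the array that stood apart, and without it D at 0.5 h was -1.17.

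AT4G25250, a pectin methylesterase inhibitor family gene, was the other wall gene lower at 0.5 h. At 0.5 h its log2 signals were 9.89, 9.32 and 8.46 on control and 8.10, 8.12 and 6.27 on ACC. The groups did not overlap, with a difference of -1.73 (SE 0.37, adjusted p = 0.0299 in limma), although the lowest value is from the array that stood apart. Over 0.5 to 2 h the difference was -1.43 (SE 0.21, adjusted p = 4.06e-05 in limma) for AT4G25250 and -1.25 (SE 0.17, adjusted p = 1.74e-05) for EXPB1. Without all arrays of replicate 1 neither passed (adjusted p = 0.0776 and 0.0722 in limma), nor did any other of the 16 early calls of the named genes under the naming rule, and 11 of the 16 did not pass without replicate 2. Without the 0.5 h ACC array that stood apart, neither gene passed at 0.5 h. At 2 h, replicate 3 differed from the others in both genes: the ACC array read 8.51 for AT4G25250 and 8.39 for EXPB1, and control replicate 3 read 8.46 and 8.16. For both genes the difference over 0.5 to 2 h was also below that at 0 h, which was positive. A test of this change passed in both, and in 0.044% of all probe sets in the lower direction.

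XTH21, a xyloglucan endotransglucosylase/hydrolase that cuts and rejoins wall xyloglucan, had smaller early differences. Its D was -0.56 at 0.5 h, -0.63 at 1 h, -0.58 at 2 h, -1.43 at 4 h, -1.91 at 8 h and -2.07 at 12 h. Its difference over 0.5 to 2 h was -0.59 (SE 0.14, adjusted p = 0.0121 in limma). At 12 h the signals were 8.38, 8.11 and 8.31 on control and 6.15, 6.25 and 6.19 on ACC, a gap of nearly 2 log2 units with little spread in either group. GH9B8, an endoglucanase family gene, had D of -1.69 at 8 h and an early difference of -0.47 that did not pass (adjusted p = 0.16 in limma). EXPB1 was the 1 member among 19 expansins measured under 1 gene name. Of these, 3 were lower (1.47% of all probe sets) and 0 higher (1.73%) over 0.5 to 2 h. Of the 19, EXPB1 included, 2 were lower at 4 h (2.12% of all probe sets), 6 at 8 h (2.48%), 5 at 12 h (2.53%) and 5 at 24 h (3.22%). Of the 19, 0 were higher at 4 h (2.06% of all probe sets), 1 at 8 h (2.42%), 1 at 12 h (2.89%) and 0 at 24 h (2.22%). XTH21 was the 1 member among 10 genes of its family measured under 1 gene name. Of the 10, 3 were lower and 0 higher over 0.5 to 2 h, beside the same shares of 1.47% and 1.73%. At each late time 2 of the 10, XTH21 included, were lower, and 1 was higher at 8, 12 and 24 h. The shares of all probe sets at these times are those given for the expansins. The rule chose EXPB1 and XTH21 by these late contrasts, so nothing is read from the late counts of either family.

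**Figure D3:**
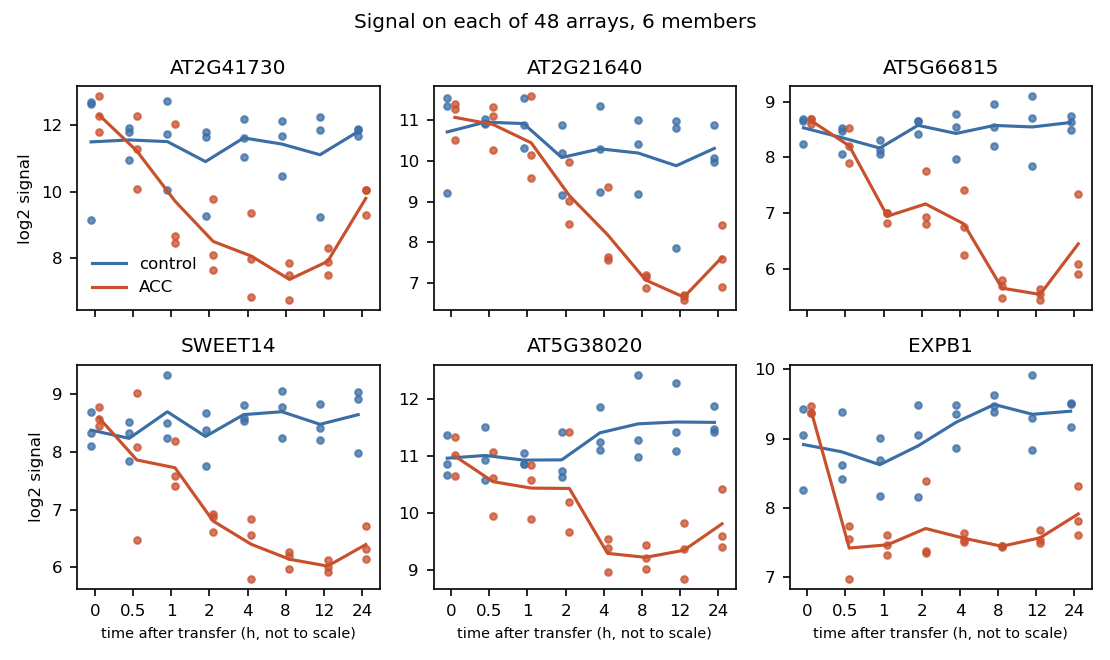
Log2 signal on every array against hours after transfer for AT2G41730, AT2G21640, AT5G66815, SWEET14, AT5G38020 and EXPB1, with 1 point per array and lines through the means of 3 arrays of each medium. EXPB1 is low on ACC from 0.5 h and AT5G66815 from 1 h. SWEET14 is apart from control at 2 h, and AT2G41730 has D of -1.78 at 1 h and -2.39 at 2 h, neither passing the test. AT2G21640 and AT5G38020 are low mainly from 4 h. Single control arrays of replicate 3 are low in the panels of AT2G41730 and AT2G21640.

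Of 6 members grouped under signalling and regulation, 5 passed over 0.5 to 2 h. Among the 5 are AT4G17280 and AT5G47530, grouped here as members of an auxin-responsive family. Among all members 34 of 155 passed, and 1.47% of all probe sets were lower. This group was drawn up after the members were known, and 0 members passed without all arrays of replicate 1. AT5G66815 encodes CEP5, a small secreted peptide of the CEP family. On ACC its log2 signals were 7.89, 8.20 and 8.53 at 0.5 h and then 7.0, 6.82 and 7.01 at 1 h, where control arrays read 8.31, 8.06 and 8.13. At 2 h it was lower by -1.41 (SE 0.29, adjusted p = 0.0189 in limma), with control at 8.65, 8.65 and 8.42 and ACC at 6.93, 6.80 and 7.75. The media overlapped at 0.5 h and were apart at 1 h and 2 h.

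By 12 h AT5G66815 read 8.70, 9.10 and 7.84 on control and 5.54, 5.64 and 5.43 on ACC, which is 8.05-fold lower, and at 24 h it was 4.53-fold lower. One ACC array at 24 h, with 7.35, was well above the other two, 5.90 and 6.09. RALFL27, another secreted peptide of the RALF family, was lower over 0.5 to 2 h by -0.79 (SE 0.18, adjusted p = 0.00855 in limma) and at 24 h read 10.56, 9.96 and 10.06 on control and 8.98, 8.35 and 8.54 on ACC. Its D at 24 h, -1.57, was its lowest.

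GH3.17, an enzyme that joins the auxin IAA to amino acids and so lowers free auxin, was lower over 0.5 to 2 h by -1.02 (SE 0.23, adjusted p = 0.0076 in limma). At 0.5 h the ACC arrays read 9.12, 9.02 and 6.75, the last being the array that stood apart, and control arrays 9.66, 9.25 and 10.12. With the GAPDH covariate, and without replicate 1 or replicate 2, GH3.17 did not pass. From 4 h its D was steady, at -1.20, -1.29, -1.24 and -1.07. AT4G17280 and AT5G47530 belong to an auxin-responsive family of membrane proteins with cytochrome b561 and DOMON domains. AT5G47530 was lower over 0.5 to 2 h by -0.49, and AT4G17280 by -0.65 (SE 0.13, adjusted p = 0.00249 in limma). AT4G17280 was lower at 2 h by -1.01 (SE 0.23, adjusted p = 0.0333 in limma), with the third ACC array at 9.79 just below the lowest control array, 9.92.

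BHLH101, a transcription factor of the iron deficiency response, was the 1 signalling member that did not pass. Its difference over 0.5 to 2 h was -0.04 (adjusted p = 0.966 in limma). The media overlapped at 2 h, at 8.77, 8.99 and 7.59 on control and 8.46, 8.99 and 7.24 on ACC. At 4 h it read 9.21, 8.56 and 7.95 on control and 6.51, 6.67 and 7.23 on ACC, with no overlap. Of 3 measured genes of an iron deficiency list, BHLH101 was the only member. AT1G47400 had D of -0.31 at 4 h, -1.62 at 8 h, -2.38 at 12 h and -0.77 at 24 h, and passed the test at 12 h (adjusted p = 0.00509 in limma). PYE had D between -0.30 and -0.18 at 4 to 24 h and did not pass at any of these times.

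Transporters made up 9 named members, of which SWEET13 and SWEET14 fell early. Both export sucrose from cells and have also been shown to move gibberellin. For SWEET14 the signals at 2 h were 8.38, 7.76 and 8.67 on control and 6.93, 6.61 and 6.87 on ACC, and at 8 h 8.24, 9.06 and 8.78 on control and 6.20, 6.26 and 5.97 on ACC. The media did not overlap at either time, and D at 8 h corresponded to a 5.87-fold lower signal. Over 0.5 to 2 h SWEET14 was lower by -0.94 (SE 0.21, adjusted p = 0.00753 in limma) and SWEET13 by -0.75 (SE 0.16, adjusted p = 0.00283). With the GAPDH covariate the SWEET14 value did not pass (adjusted p = 0.0518). At 0.5 h the low values of both came from the array that stood apart, 6.48 for SWEET14 and 5.96 for SWEET13, and the other 2 ACC arrays lay between 8.08 and 9.02 for SWEET14.

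The other 7 transport genes did not pass over 0.5 to 2 h. They include OCT1, a carnitine transporter, the nitrate and peptide transporter family genes AT3G21670 and AT3G45680, the multidrug and toxin extrusion genes AT2G04050, AT1G15180 and AT5G38030, and the amino acid transporter family gene AT5G02170. Their mean D of 4 to 24 h ran from -1.79 in AT2G04050 to -0.95 in AT1G15180. OCT1 varied among control arrays: at 4 h it read 9.46, 7.82 and 6.28 on control and 6.62, 6.44 and 6.20 on ACC, so replicate 3 of control lay in the ACC range. Of 28 transporters measured by family symbol, 3 were members.

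Stress response was represented by 6 named members. The 6 members in this group had a median of their mean D of 4 to 24 h of -1.94, a median difference over 0.5 to 2 h of -0.22, and 0 passed the early test. AT2G41730, a gene of unknown molecular function known to be induced when mitochondria or oxygen supply are disturbed, had log2 signals at 8 h of 12.12, 11.68 and 10.47 on control and 7.49, 7.87 and 6.75 on ACC, 16.6-fold lower. Its D was -1.78 at 1 h and -2.39 at 2 h, with an SE of 0.88 and adjusted p-values of 0.629 and 0.359 in limma. At 24 h it read 11.66, 11.88 and 11.86 on control and 10.06, 10.03 and 9.30 on ACC, 4.00-fold lower. The media were apart at both times, and the ACC level was higher at 24 h than at 8 h on every array.

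AT2G21640, a widely used marker of oxidative stress, read 10.80, 10.98 and 7.86 on control at 12 h and 6.70, 6.69 and 6.58 on ACC, and its D there was -3.22 (SE 0.67). At 24 h it read 9.97, 10.07 and 10.87 on control and 8.42, 7.58 and 6.91 on ACC. AT5G09570, a small mitochondrial stress-induced protein, instead had its lowest D at 24 h, -2.75, with control at 10.86, 10.87 and 11.52 and ACC at 9.00, 8.11 and 7.89. AT5G51440, a small heat shock protein of mitochondria, had D of -1.49 at 4 h and -2.39 at 8 h. GSTU25, a glutathione transferase, had D of -2.01 at 8 h with control arrays at 12.62, 12.71 and 11.85. NDB4, an alternative mitochondrial NAD(P)H dehydrogenase, had the smallest mean D of the group, with values from -1.53 to -1.13.

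One set of control arrays moved with this group. In all 6 stress genes, replicate 3 was the lowest of the 3 control arrays at 0, 2, 4, 8 and 12 h, whereas over all probe sets it was the lowest in 36.1% to 40.3% of cases at those times. The median gap to the mean of the other 2 control arrays was -2.12 at 0 h, -1.40 at 2 h, -1.22 at 4 h, -1.47 at 8 h and -2.51 at 12 h, but 0.01 at 0.5 h, 0.01 at 1 h and 0.57 at 24 h. For AT2G41730 the control signals at 0 h were 12.68, 12.62 and 9.16. The 3 ACC arrays of 0 h read 11.79, 12.26 and 12.85, and D at 0 h was 0.82 with all arrays and -0.62 without replicate 3. The median D of the group at 0 h was 0.39. Without replicate 3 all 6 genes met the rule, and the median D was -1.93 at 4 h, -2.50 at 8 h, -2.78 at 12 h and -1.73 at 24 h. Without replicate 1, 4 of the 6 met it, and the median D was -0.98 at 4 h, -2.19 at 8 h, -1.64 at 12 h and -2.14 at 24 h. With all arrays these medians were -1.57, -2.20, -2.02 and -1.95. The 2 that did not meet it without replicate 1 were AT5G09570, with -0.16 at 4 h, and NDB4, with -0.52.

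A list of 12 mitochondrial stress genes, drawn up with earlier results of these data known, had 7 genes measured and 6 of them were members. NDB2, an alternative dehydrogenase related to NDB4, was the seventh. Its D was -0.33 at 4 h, -0.90 at 8 h, -1.01 at 12 h and -0.67 at 24 h, which put it outside the rule, and it passed the test at 8, 12 and 24 h (adjusted p = 0.00155, 0.000361 and 0.0208 in limma). AT5G43450, a 2-oxoglutarate-dependent oxygenase family gene on that list, had its lowest D at 4 h, -2.18, and -0.93 at 24 h, and its control signals at 12 h were 10.05, 10.56 and 7.50.

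The member with the lowest mean D was AT5G04120, of the phosphoglycerate mutase family, and its control arrays varied in the opposite sense. At 8 h it read 10.43, 9.48 and 11.31 on control and 6.67, 6.14 and 6.55 on ACC, a 15.5-fold lower signal. At 0 h it read 9.03, 8.74 and 11.74 on control, so replicate 3 was the highest there, and 10.74, 9.40 and 10.39 on ACC. At 24 h it was 4.67-fold lower, with ACC at 9.29, 8.26 and 9.16. At 2 h its D was -1.83 (SE 0.77, adjusted p = 0.493 in limma), and replicate 3 was high on both media, 11.95 on control and 10.52 on ACC.

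Genes of specialised metabolism were the most numerous group, with 14 named members. Their mean D of 4 to 24 h had a median of -1.37, and 2 of 14 passed over 0.5 to 2 h, AT1G78990 and AT3G46170, which were named after their values were seen. AT1G78990 is an acyltransferase family gene with an early difference of -0.64, and AT3G46170 a dehydrogenase family gene with -0.66. AT5G38020, a methyltransferase of the SABATH family that makes methyl esters of small acids, read 10.98, 11.28 and 12.42 on control at 8 h and 9.21, 9.02 and 9.44 on ACC. The media were apart from 4 h, and at 2 h they overlapped, at 10.64, 10.73 and 11.43 on control and 10.19, 9.67 and 11.42 on ACC.

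The dirigent family genes AT4G11210 and AT4G11190, whose relatives steer the coupling of phenolic radicals, had mean D of -2.04 and -1.75. AT4G11210 read 10.63, 9.55 and 11.14 on control at 4 h and 7.88, 7.73 and 8.56 on ACC, 5.21-fold lower. NAMT1, which methylates nicotinate, and AT3G46700, a glycosyltransferase, lay near the threshold, with mean D of -1.01 and -0.92. AT5G47980, an acyltransferase of the thalianol gene cluster, had D between -1.52 and -1.08. Without replicate 3 its D at 4 h was -0.22, outside the rule, and that of AT3G46700 was -0.25. In 12 of these 14 genes control replicate 3 was the highest control array at 8 h, with a median gap of 1.08 to the other 2, whereas over all probe sets it was the highest in 40.5% of cases. Without replicate 3 the median D of the group at 8 h was -1.19, and 10 of 14 met the rule. Without replicate 1 that median was -1.59 and 9 of 14 met it, and without replicate 2 it was -1.62 and 12 of 14 met it.

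The 7 lipid transfer and related protein genes, whose products are thought to carry lipids in the wall or to the cuticle and suberin, had 0 early calls. AT4G33550 was the lowest of them. At 2 h its signals on both media overlapped, 11.21, 10.84 and 11.46 on control and 11.32, 10.44 and 11.63 on ACC. At 12 h they were 11.72, 10.72 and 10.79 on control and 8.24, 8.23 and 8.55 on ACC, 6.68-fold lower. AT2G37870 likewise had D of 0.27 at 2 h and -2.07 at 12 h. AT4G22610 varied widely among control arrays, at 8.33, 8.67 and 11.85 at 0 h, and had overlapping media at 4 h.

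The 7 lectins and ligand-binding genes also had 0 early calls and a median early difference of -0.21. JAL22, a jacalin-type lectin, read 12.61, 12.23 and 12.04 on control at 24 h and 10.14, 9.87 and 10.52 on ACC, 4.34-fold lower. At 4 h 1 ACC array, 11.24, was close to the control range of 11.71 to 11.99, while the others read 9.03 and 8.64. EULS3, a lectin linked to stress and stomata, had D from -1.73 to -1.37. The Bet v 1 family genes AT3G26450, AT3G26460, AT4G14060 and AT1G14960, whose products bind small hydrophobic ligands, had mean D between -1.46 and -1.24. Of 5 lectin genes measured by symbol, 2 were members.

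**Figure D4:**
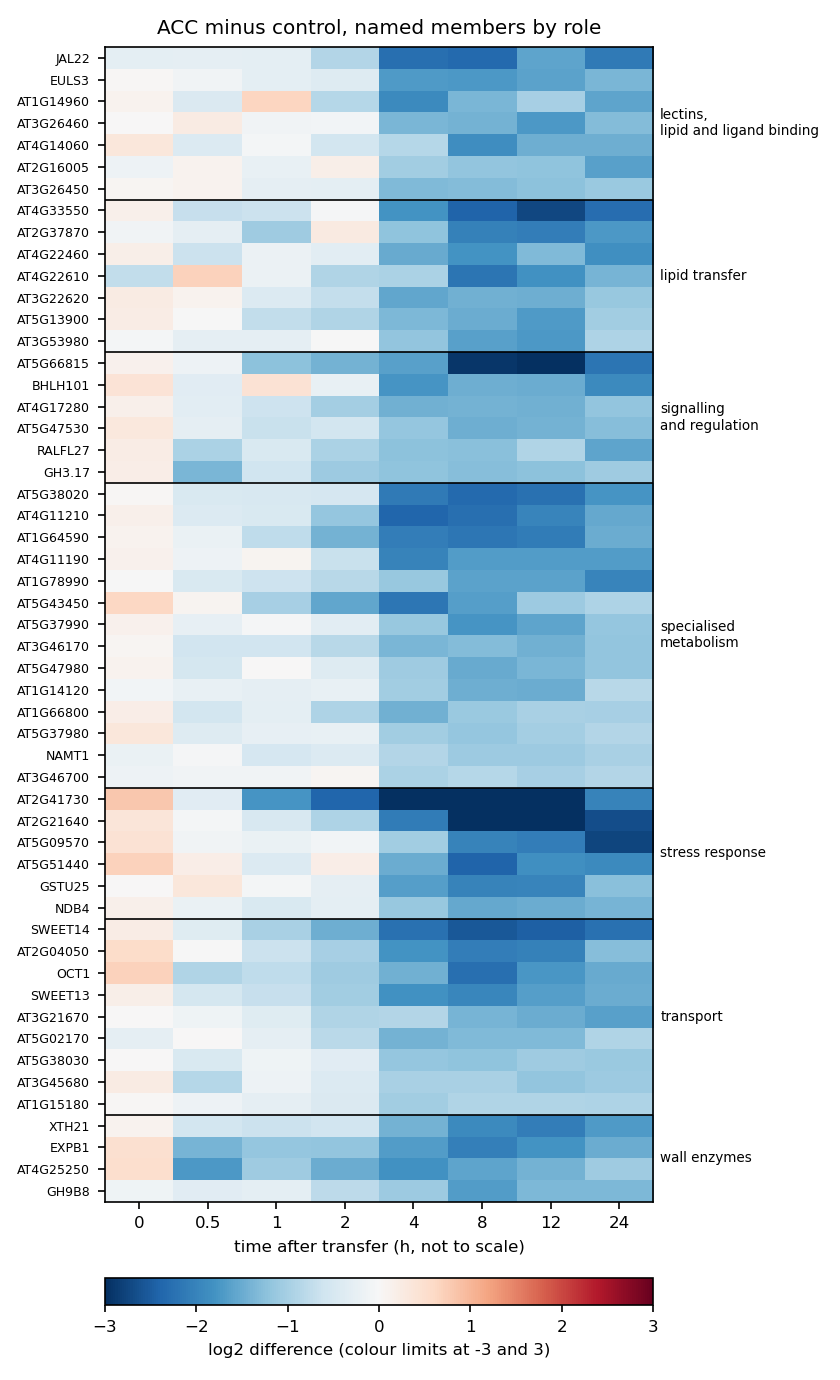
D (colour, log2, ACC minus control) of the 53 named members placed in role groups, with 1 line per gene and 1 column per time from 0 to 24 h. The 4 wall genes are negative from 0.5 h on with a median over 0.5 to 2 h of -0.92, whereas that median is -0.22 in the stress genes, where AT2G41730 is lower than the others at 2 h with -2.39.

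Over 0.5 to 2 h the median differences of the role groups were -0.92 for wall enzymes, -0.72 for signalling, -0.48 for transport, -0.40 for specialised metabolism, -0.35 for lipid transfer, -0.22 for stress response and -0.21 for lectins and ligand binding. The differences between groups were not tested, and the groups were drawn up after the members were known. Each group's count of early calls stands beside 34 of 155 over all members and 1.47% of all probe sets. The other 27 named members have no group. Among them AT3G21680 was lower at 1 h by -0.97 (SE 0.20, adjusted p = 0.0176 in limma) and at 2 h by -0.96 (SE 0.20, adjusted p = 0.0187). Its signals at 1 h were 8.57, 7.80 and 8.37 on control and 7.18, 7.17 and 7.47 on ACC, and without the array of conflicting labels the 2 remaining ACC values were the lower ones. AT1G72230, a cupredoxin family gene named after its values were seen, was the fourth named call at 2 h, lower by -0.70 (SE 0.17, adjusted p = 0.0461 in limma). AT1G19960 was lower over 0.5 to 2 h by -1.08 (SE 0.31, adjusted p = 0.0466 in limma), a call lost in 15 of 27 alternative settings.

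**Figure D5:**
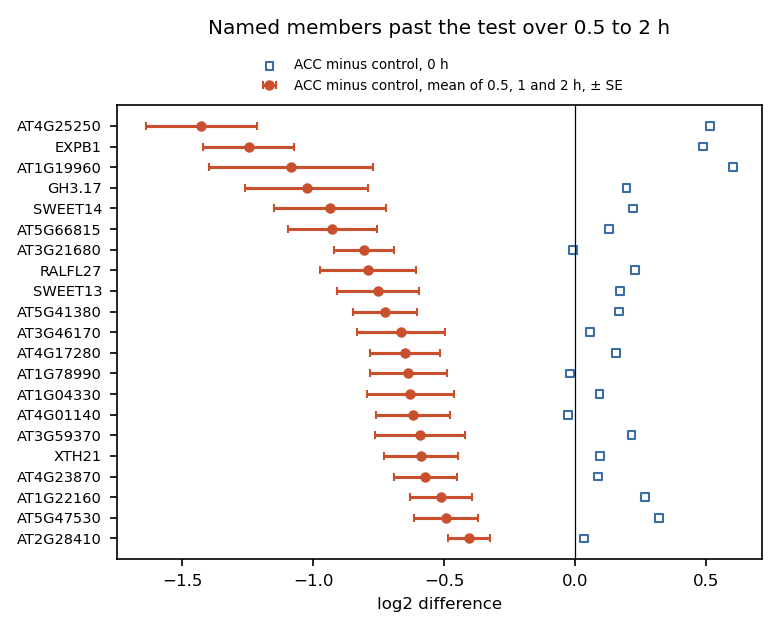
Difference over 0.5 to 2 h (log2, ACC minus control) with its SE for the named members that passed the test, n = 9 arrays of each medium (filled points with bars), and the difference at 0 h (open squares, n = 3). AT4G25250 with -1.43 and EXPB1 with -1.25 are the lowest, and their 0 h values are 0.51 and 0.49.

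Of 21 genes of an ethylene perception and signalling list, 5 were measured under 1 gene name, and none of the 5 was a member. RTE1, which acts with the receptor ETR1, and ARL, a growth regulator, had D of 1.35 and 2.14 at 12 h, while EIN3, the transcription factor that mediates the response, had D of 0.07. The other measured genes of the list, RTH and ETP2, had D of 0.03 and -0.0009 at 12 h. The root hair genes EXPA7, EXPA18 and XTH26 were also outside the set, with D at 8 h of 0.53, 0.49 and 2.04. Of these XTH26 passed the test at 8 h, and EXPA7 and EXPA18 did not (adjusted p = 0.00149, 0.579 and 0.628 in limma). No measured gene of the auxin response list (5 of 20 listed) or the hypoxia list (2 of 15 listed) was a member. Listed genes without a probe set of 1 gene name, and members without 1 gene name, could not be compared.

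Placed in the gene order of the RefSeq TAIR10.1 assembly, 78 members could be located, and 12 of them lay in 5 runs with another member no more than 10 genes away, 15.4% of those placed. Of the probe sets that rose by the same rule with the sign turned (196, of which 96 were placed), 13.5% lay in such runs. AT5G37980, AT5G37990, AT5G38020 and AT5G38030 on chromosome 5 span 6 genes. They encode a dehydrogenase, a pair of SABATH-type methyltransferases and a multidrug and toxin extrusion transporter, with mean D of -1.02, -1.42, -2.12 and -1.14. AT3G26450 and AT3G26460 on chromosome 3 are adjacent members of the Bet v 1 family, and AT4G11190 and AT4G11210 on chromosome 4 lie next to each other in the dirigent family. Neighbouring genes of 1 family can be similar in sequence, and whether probes of one detect the other was not tested.

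The members nearest the threshold were AT1G62480, AT1G14120 and AT2G38600, whose highest D of the 4 times was -0.82, -0.84 and -0.85. Just outside were AT1G22330, AT5G47000 and AT5G23840, each with a highest D of -0.79. The members' SE was larger than usual, with a median of 0.33 at 8 h against 0.14 for all probe sets, so the side of the threshold on which such genes fell was within their error. Of the 80 named members, 25 did not meet the rule without replicate 1, 8 without replicate 2 and 16 without replicate 3. The D at 4 h was then -0.31 in AT3G45680 and -0.39 in AT4G22610 without replicate 3, and -0.39 in AT4G14060 without replicate 1.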

How the data were processed

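RNA from 48 root samples was hybridised to Affymetrix arrays after labelling from the 3' end, per the labels' protocols. The deposited table holds 1 column of log2 signal per array, as made by the authors. Which log base, probe summary and normalization were used is not given in the sources used here, and the base was taken from the range of values. Of 22810 probe sets, 64 control probe sets and 7 with a 0 were left out, which left 22739. Names came from the platform annotation through RefSeq TAIR10.1.

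Group means were estimated over all arrays with limma 3.58.1 in R 4.3.3 (32 residual degrees of freedom, empirical Bayes), with Benjamini-Hochberg adjustment over all probe sets and a threshold of 0.05. The fit was tested on simulated data. The number of arrays limits the precision, and the median SE of a difference was 0.140. Replicates carry numbers in the labels, but nothing says that they are separate cultures, so p-values measure the spread between samples, which may be technical. Same-numbered ACC and control arrays did not deviate together throughout (correlation over 0.1 in 16 of 24 pairs). At 1 h, however, the correlations were 0.364, 0.227 and 0.143, and at 2 h 0.384, 0.362 and 0.41. At 4, 8 and 12 h they were also all positive, from 0.015 to 0.238.

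The members and lists were chosen with earlier results of these data known, and the role groups after the members were seen. Named genes were the 10 lowest by mean D, the 10 largest early calls, up to 4 of each family, those nearest the threshold, those with the largest changes from 0 h and listed genes. Genes named only to complete a role group, a run of neighbours or a count were chosen after their values were seen. Alternatives were quantile normalization, a filter on dim probe sets, array weights, an intensity trend with robust prior, the replicate number as a block, a GAPDH covariate, a fit on 6 arrays, other thresholds, subtraction of the 0 h difference and leaving out replicates or arrays.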

Additional observations from a re-analysis of the deposited data

Results flagged for a closer look

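In 2 named members the difference between ACC and control over 0.5 to 2 h also differed from that at 0 h, by a test of the change itself. For AT4G25250 the change was -1.94 (SE 0.42, adjusted p = 0.0466 in limma), and for EXPB1 it was -1.73 (SE 0.35, adjusted p = 0.0354). Over all 22739 probe sets, 10 (0.044%) passed this test downwards. Both genes read higher on ACC than on control at 0 h, by 0.51 and 0.49, and in both genes control replicate 3 was the lowest control array at that time, with 8.65 and 8.27. The part of that array in the change was not tested.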

How the results depend on the processing

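The number of members was 299 at a threshold of -0.6 and 95 at -1. Leaving out replicate 1, 2 or 3 gave between 111 and 171 members, quantile normalization 156 (152 shared) and subtraction of the 0 h difference 232 (141 shared). Members lower at 0.5 h (2) were 5 with array weights, 0 in the fit on 6 arrays and 0 to 7 when a replicate or array was left out. At 1 h (1) they were 2 with the filter on dim probe sets, 6 with array weights, 2 with the replicate block, 0 with the GAPDH covariate and 0 to 3 on leaving out. At 2 h (7) they were 38 with array weights, 12 with the block, 0 in the fit on 6 arrays and 0 to 40 on leaving out, the 40 without replicate 3. Over 0.5 to 2 h (34) they were 62 with array weights, 18 with the GAPDH covariate and 0 to 53 on leaving out. The lower calls over all probe sets (334) were 799 with array weights, 136 with the covariate and 11 to 645 on leaving out. With the replicate block 47 members were lower over 0.5 to 2 h. The replicate numbers were not taken to pair the samples, since their correlations ran from -0.265 to 0.41 over all times. Each correlation at 1, 2, 4, 8 and 12 h was positive. The negative ones were -0.117 and -0.265 at 0 h, -0.133 at 0.5 h and -0.149 at 24 h. The median early difference ran from -0.54 to -0.38 over 27 settings. Of 366 checks of the 16 named early calls, 295 passed, 71 did not and 0 turned direction. The counts at 0 h and of the control F test were 0 in each setting run. The causes of these shifts were not tested.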
